A study of Homo sapiens with 4 samples.

Results

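Receptor tyrosine kinases are cell-surface proteins that bind a ligand outside the cell and carry a kinase domain inside it. A list of 43 such receptors was looked up by gene symbol among 57768 genes, with the fibroblast growth factor receptors, EGFR, ERBB2, ERBB3 and AXL left out, and all 43 were found. A receptor was counted as expressed at a mean of at least 1 FPKM over 4 libraries. FPKM, the fragments of a gene scaled by its length and by the size of the library, allows levels to be set side by side between genes. By this rule 13 of the 43 receptors were expressed.

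The values come from RNA-seq of cultured cells labelled HepG2, an established human liver cancer line, grown in Dulbecco's modified Eagle's medium with fetal bovine serum. The labels name total RNA, yet their extraction text describes chromatin taken with an antibody, and they do not say how the RNA was isolated. There were 2 libraries of WT cells and 2 libraries labelled C/EBPβ enh-/-. In the latter cells, both copies of a distal enhancer of CEBPB, the gene of the transcription factor C/EBPβ, were deleted with CRISPR/Cas9, and they are also called edited cells here. The comparison asks how the receptor repertoire differs between cells with and without that enhancer. Whether the edited libraries come from 1 clone or several is not given in the sources used here, so a difference between clones and the effect of the deletion cannot be told apart.

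Ligand binding brings receptor chains together, and the kinase domains phosphorylate tyrosines to which adaptors such as GRB2 and SHC1 bind. Signals then pass to the RAS, phosphatidylinositol 3-kinase, phospholipase C and STAT pathways, and they are ended by phosphatases and by ubiquitination or shedding of the receptor. In liver, the hepatocyte growth factor receptor MET is known for its part in regeneration, and the insulin receptor INSR for the control of glucose and lipid metabolism.

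The cell line label was set against liver genes first. Of 20 hepatocyte markers, 19 stayed under 1 FPKM in each of the 4 libraries, and APOC3 and FOXA2 were listed at 0 in each. ALB, the albumin gene, reached no more than 0.0553 FPKM. CPS1, a mitochondrial enzyme of the urea cycle, was the exception at 608 and 417 FPKM in WT libraries 1 and 2 and at 242 and 360 in edited libraries 1 and 2. The defining markers of the labelled line were thus absent at the level of these values, and the libraries are called here by their labels.

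CEBPB stood at 30.6 and 19.2 FPKM in the WT libraries, against 12.4 and 11.8 in the edited libraries. Both edited libraries lay below both WT libraries, and the log2 fold change was -0.94 (limma, standard error 0.27, adjusted p = 0.125), or -0.62 without WT library 1. Fold changes are C/EBPβ enh-/- against WT on the scale of log2(FPKM + 1), which understates the change of low genes, and the threshold is an adjusted p of 0.05 over all 12491 genes with a mean of at least 1 FPKM. With 2 libraries against 2, a two-sided exact permutation test cannot go below 0.333, so limma's fit across genes is the only test used.

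Of the 13 expressed receptors, 0 passed the threshold in limma, beside 182 of the 12491 tested genes (1.46%). For all tested genes the share that passed was 1.21% in the lower direction and 0.248% in the higher. At an unadjusted p under 0.05, limma gave 3 lower receptors, MET, PDGFRB and IGF1R, and 0 higher ones. The same mark took 16.9% of all tested genes as lower and 3.86% as higher. MET came closest to the threshold.

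All 13 expressed receptors had a mean of at least 1 FPKM in each genotype, so none entered the test through 1 genotype alone. Both edited libraries lay below both WT libraries for 7 of the 13, EPHA2, IGF1R, MET, PDGFRB, ROR1, RYK and TYRO3, where 37.5% of all tested genes did so. Both lay above both WT libraries for 1, INSR, where 15.1% of all tested genes did so. The genotypes overlapped for DDR1, PTK7, ROR2, EPHB4 and MST1R. In bulk RNA, fewer cells that express a receptor and less of its RNA per cell cannot be told apart.

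The median log2 fold change over the 13 receptors was -0.43, against -0.14 over all tested genes, a difference of -0.29. Without edited library 2 these medians were -0.24 and -0.10, and without WT library 1 they were -0.30 and -0.15, so the difference was smaller. Scaling the libraries to the same total of protein-coding genes moved the median of all genes to 0.06 and that of the receptors to -0.21, a difference of -0.27. Under that scaling 5 of the 13 receptors stood below both WT libraries, IGF1R, MET, PDGFRB, RYK and TYRO3, and 2 stood above, INSR and PTK7, beside 2966 and 3702 of the 12491 tested genes. Since scaling moves all genes together, the difference from that median is the part of a fold change that scaling leaves nearly in place. It ran from -0.96 for MET to 0.47 for INSR.

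**Figure D1:**
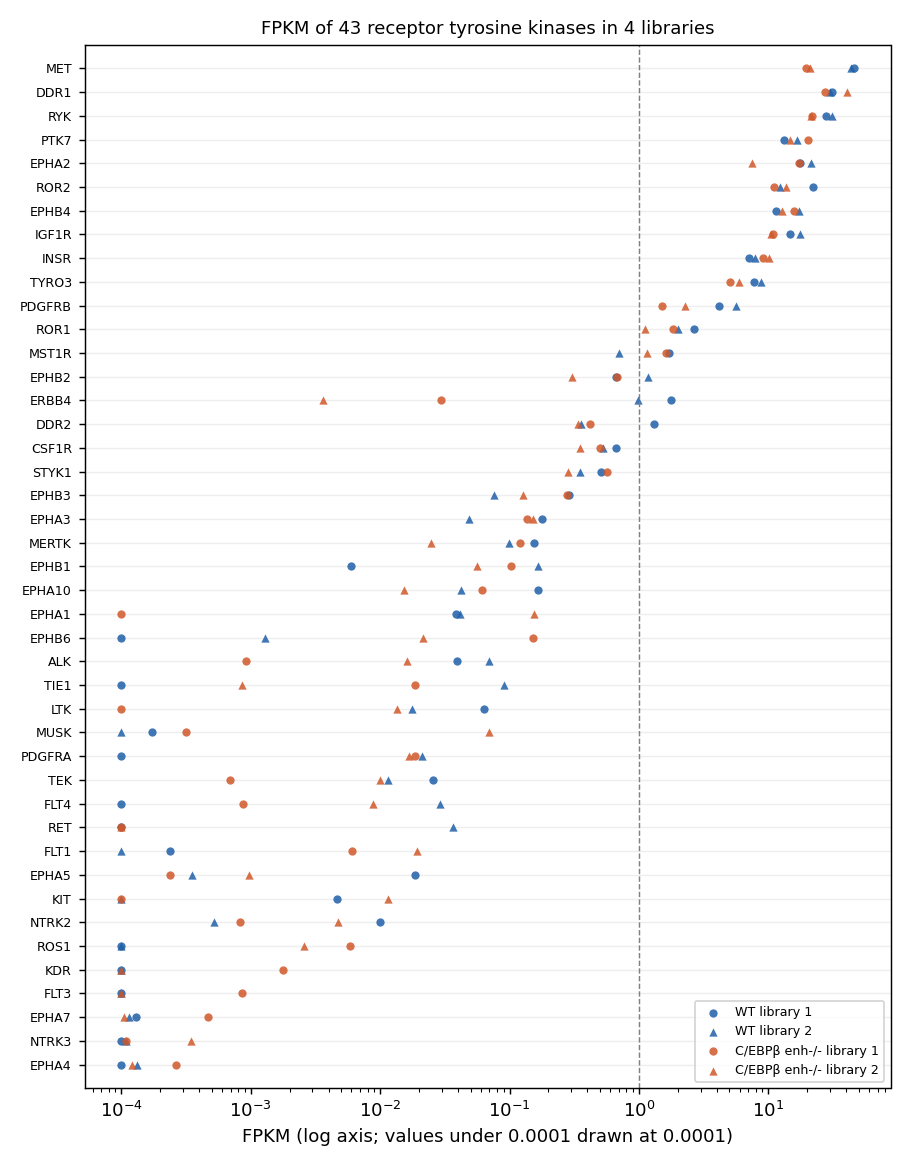
FPKM of each of the 43 receptors in each library on a log axis, ordered by mean over the 4 libraries, with WT in blue, C/EBPβ enh-/- in orange, library 1 as circles and library 2 as triangles. The dashed line marks 1 FPKM. MET and DDR1 head the list, ERBB4 shows the widest gap between genotypes among receptors with a library at 1 or more, and 23 receptors have a mean under 0.1.

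Summed over the 43 receptors, the level was 213 and 218 FPKM in the WT libraries, against 166 and 164 in the edited libraries. As a share of the summed FPKM of protein-coding genes, it was 0.0563% and 0.0551% in WT, against 0.0482% and 0.0519% in edited libraries. As a share of all summed FPKM it was 0.0390% and 0.0406%, against 0.0271% and 0.0340%, so the size of the gap depends on the denominator. The 13 expressed receptors made up 97.2% to 98.8% of these sums. MET alone held 21.5% and 19.9% of the sum in the WT libraries, against 11.7% and 12.8% in the edited ones. Shares lie within a library and do not depend on how libraries are scaled to each other.

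**Figure D2:**
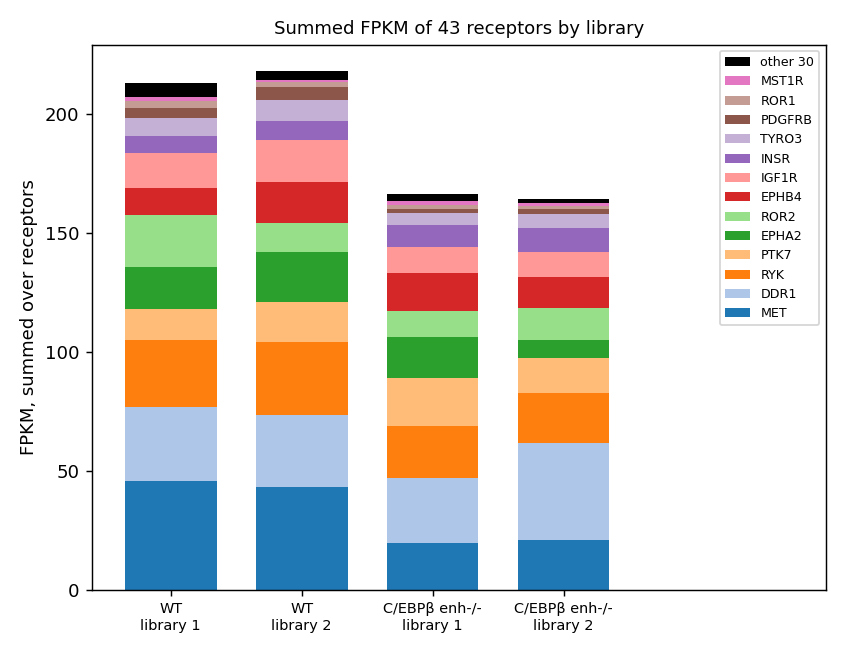
FPKM summed over the 43 receptors in each library, stacked by receptor for the 13 expressed ones, with the other 30 as the black top. The edited libraries reach 166 and 164 against 213 and 218, and the lowest block, MET, shortens from 45.8 and 43.3 to 19.5 and 21.1.

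MET, the receptor of hepatocyte growth factor, drives cell scattering, growth and branching. Its gene (ENSG00000105976.10) is on the plus strand of chromosome 7, at positions 116312250 to 116438431 of GRCh37. Because MET came closest to the threshold, the 250 bases before its start are shown, as RefSeq gives them in a table on GRCh38.p14. The whole RefSeq window of the gene occurs in GRCh37 1 time, where these bases are chr7:116312000-116312249, plus strand, and the same holds for the windows of the other receptors shown. Capitals mark 2 matches to the GC box GGGCGG, the letters bound by SP1 and related factors.
MET: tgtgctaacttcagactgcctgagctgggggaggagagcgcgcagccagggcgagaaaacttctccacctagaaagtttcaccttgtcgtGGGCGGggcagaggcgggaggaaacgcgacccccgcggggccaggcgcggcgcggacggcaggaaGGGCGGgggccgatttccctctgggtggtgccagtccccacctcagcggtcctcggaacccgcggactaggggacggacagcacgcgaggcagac

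The FPKM of MET was 45.8 and 43.3 in WT libraries 1 and 2, against 19.5 and 21.1 in edited libraries 1 and 2. The WT libraries were close to each other, the edited libraries were close to each other, and the genotypes were far apart. WT cells had a mean of 44.6 ± 1.74 (SD, n = 2) and edited cells one of 20.3 ± 1.13 (SD, n = 2), a ratio of 0.455. MET was the receptor with the highest mean in WT cells, and DDR1 had the highest in the edited cells. Within a library, the ratio of MET to DDR1 was 1.47 and 1.44 in the WT libraries, against 0.705 and 0.521 in the edited ones.

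On the log2 scale the difference in MET was -1.10 (standard error 0.21, 95% interval -1.60 to -0.60, adjusted p = 0.0601 from limma), or -0.96 once the median of all tested genes is subtracted. Tested among the 10909 protein-coding genes alone, the adjusted p of MET was 0.0331 (limma), within a range of 0.0331 to 0.361 over all alternatives. In that smaller test 4.19% of the genes passed in the lower direction, and MET was the 1 receptor among them.

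MST1R, or RON, is the relative of MET that binds macrophage-stimulating protein, encoded by MST1. It stood at 1.69 and 0.700 FPKM in the WT libraries, against 1.63 and 1.15 in the edited libraries. Its genotypes overlapped, and the WT libraries lay farther apart than the genotype means. The log2 fold change was 0.15 (95% interval -0.63 to 0.93), and the estimate turned to -0.18 without WT library 2. That estimate was 0.48 without WT library 1 and 0.27 with the same protein-coding total per library.

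The ligands of this family were low. HGF, the ligand of MET, reached no more than 0.0232 FPKM in any library, and MST1 was at 1.45 and 0.925 FPKM in the WT libraries, against 1.59 and 2.03 in the edited ones.

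PDGFRB, the beta receptor for platelet-derived growth factor, is typical of mesenchymal cells, pericytes and liver stellate cells. The gene (ENSG00000113721.9) is on the minus strand of chromosome 5, at positions 149493402 to 149535435 of GRCh37. Its upstream bases are shown because it had the second lowest fold change of the 13. They are chr5:149535436-149535658 of GRCh37, read from the minus strand, from the same RefSeq table. They number 223, since the 27 bases that GENCODE counts as part of the gene are left out. Capitals mark 1 GC box, as CCGCCC on the strand shown, and 1 CCAAT box.
PDGFRB: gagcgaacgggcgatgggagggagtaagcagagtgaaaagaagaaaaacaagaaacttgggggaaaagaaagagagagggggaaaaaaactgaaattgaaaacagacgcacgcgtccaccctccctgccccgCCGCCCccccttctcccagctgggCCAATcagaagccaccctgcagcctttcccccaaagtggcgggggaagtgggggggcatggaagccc

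PDGFRB was at 4.15 and 5.59 FPKM in WT libraries 1 and 2, against 1.52 and 2.27 in edited libraries 1 and 2. Both edited libraries were lower than both WT libraries, and the gap between the genotypes exceeded the spread within either. WT cells had a mean of 4.87 ± 1.02 (SD, n = 2) and edited cells one of 1.90 ± 0.532 (SD, n = 2), a ratio of 0.389. The log2 fold change was -1.02 (standard error 0.27, 95% interval -1.66 to -0.38, adjusted p = 0.110 from limma), which did not pass the threshold.

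CSF1R, the receptor that macrophages use for colony-stimulating factor 1, is the gene beside PDGFRB on chromosome 5, from 149432854 to 149492935 on the same strand. It was below the expression mark at 0.665 and 0.523 FPKM in the WT libraries, against 0.497 and 0.348 in the edited ones. PDGFRA, KIT and FLT3, the rest of this family, reached no more than 0.0212 FPKM in any library.

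Ligands of the family were measured beside these receptors. PDGFB, which binds PDGFRB, was at 3.49 and 1.92 FPKM in the WT libraries, against 1.51 and 0.992 in the edited ones, with a log2 fold change of -0.69 (adjusted p = 0.266, limma), or -0.38 without WT library 1. KITLG, the ligand of KIT, was at 48.7 and 28.3 FPKM in WT, against 18.2 and 42.2 in edited libraries, so the ligand was present where its receptor was near 0. CSF1 stood at 2.21 and 4.37 FPKM in WT libraries and at 0.764 and 0.722 in edited libraries. It reached the filter through the WT libraries alone, so these values are a description.

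ERBB4, a receptor of neuregulins, stood apart among the receptors under the expression mark. Its gene (ENSG00000178568.9) is on the minus strand of chromosome 2, at positions 212240442 to 213403565 of GRCh37. The upstream bases are shown because of the wide gap in its values, and they lie at chr2:213403566-213403776 of GRCh37, minus strand, again from RefSeq. They number 211, without 39 bases inside the GENCODE gene. Capitals mark 1 GC box, as CCGCCC, and 1 match to GCAAT, the letters of each arm of the palindrome that C/EBP factors bind.
ERBB4: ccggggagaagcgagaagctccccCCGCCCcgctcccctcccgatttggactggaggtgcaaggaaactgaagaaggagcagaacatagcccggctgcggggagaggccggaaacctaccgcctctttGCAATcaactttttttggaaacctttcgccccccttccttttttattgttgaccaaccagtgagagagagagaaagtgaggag

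ERBB4 was at 1.78 and 0.979 FPKM in WT libraries 1 and 2, against 0.0294 and 0.00361 in edited libraries 1 and 2. It was low in WT cells and near 0 in both edited libraries, with no overlap. With a mean of 0.698 FPKM it was not among the tested genes. That mean came from the WT libraries, and the values are given as a description.

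NRG4, a neuregulin that signals through ERBB4, was at 13.7 and 8.43 FPKM in the WT libraries, against 4.05 and 3.19 in the edited libraries. The genotypes did not overlap, and the log2 fold change was -1.36 (limma, standard error 0.28, adjusted p = 0.0723). NRG2 went the other way at 6.22 and 3.59 FPKM against 8.15 and 8.23, a log2 fold change of 0.67 (adjusted p = 0.230, limma), or 0.35 without WT library 2. NRG1 overlapped between genotypes, with values from 2.14 to 3.39 FPKM.

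The Wnt-binding receptors RYK, ROR1, ROR2 and PTK7 form the most abundant group by summed level, and all 4 were expressed. They sense Wnt ligands outside the beta-catenin route and shape cell polarity and movement, and RYK and PTK7 have kinase domains that are inactive. Their sum was 65.8 and 61.8 FPKM in the WT libraries, against 54.8 and 50.8 in the edited libraries.

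RYK was at 27.9 and 30.9 FPKM in the WT libraries, against 21.6 and 21.3 in the edited libraries. Both edited libraries were lower and nearly equal to each other. The WT mean was 29.4 ± 2.11 (SD, n = 2), against 21.5 ± 0.239 (SD, n = 2) in edited cells, and the log2 fold change was -0.43 (95% interval -0.93 to 0.06, adjusted p = 0.290 from limma). With the same protein-coding total per library, that fold change was -0.21.

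ROR2, a receptor of WNT5A, was at 22.0 and 12.2 FPKM in WT, against 11.0 and 13.6 in edited libraries. WT library 1 stood above the other 3, which lay together, and the fold change of -0.40 on the log2 scale became 0.0033 without that library. ROR1 was at 2.68 and 2.01 FPKM against 1.82 and 1.12, lower in both edited libraries by a narrow margin, with a log2 fold change of -0.44 (95% interval -1.12 to 0.23), or -0.24 without edited library 2. PTK7 was at 13.2 and 16.7 FPKM in WT, against 20.4 and 14.8 in edited libraries, overlapping, with a log2 fold change of 0.21 (95% interval -0.39 to 0.81) that came to -0.0070 without edited library 1. With the same protein-coding total per library, ROR2 was at -0.19 and PTK7 at 0.43 on the log2 scale.

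WNT5A, a ligand for ROR2, ROR1 and RYK, had the lowest fold change of the tested ligands. It was at 11.9 and 26.5 FPKM in the WT libraries, against 2.98 and 5.36 in the edited libraries. The edited libraries lay below both WT libraries, and the WT libraries were the farther apart of the pairs. The log2 fold change was -1.91 (limma, standard error 0.40, adjusted p = 0.0732). It passed with the replicate block (adjusted p = 0.0318, limma) and among protein-coding genes alone (adjusted p = 0.0325, limma), and the adjusted p ran up to 0.773 in the other alternatives.

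In the insulin receptor family, INSR, the insulin receptor, was at 7.13 and 7.82 FPKM in the WT libraries, against 9.16 and 10.1 in the edited ones. It was the 1 expressed receptor with both edited libraries above both WT libraries. The mean was 7.48 ± 0.484 (SD, n = 2) against 9.64 ± 0.688 (SD, n = 2), a ratio of 1.29, and the log2 fold change of 0.33 (95% interval -0.18 to 0.84, adjusted p = 0.424 from limma) did not pass the threshold. With the same protein-coding total per library, that fold change was 0.53.

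The INSR gene (ENSG00000171105.9) is on the minus strand of chromosome 19, at positions 7112266 to 7294425 of GRCh37. Its upstream bases, chr19:7294426-7294675 of GRCh37 read from the minus strand, are shown from RefSeq as the contrast to the receptors that were lower. Capitals mark 4 GC boxes, of which 3 follow each other and share bases. The GC content of the stretch is 78.4%, against 68.4% for MET, 58.3% for PDGFRB and 55.9% for ERBB4.
INSR: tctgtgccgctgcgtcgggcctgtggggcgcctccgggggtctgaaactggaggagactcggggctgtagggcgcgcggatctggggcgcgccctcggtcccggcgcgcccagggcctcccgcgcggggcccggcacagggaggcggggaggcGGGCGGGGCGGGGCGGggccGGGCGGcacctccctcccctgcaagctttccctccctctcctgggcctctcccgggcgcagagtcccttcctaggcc

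IGF1R, the receptor of insulin-like growth factors, was at 14.6 and 17.7 FPKM in the WT libraries, against 10.9 and 10.5 in the edited libraries. The edited libraries were lower and close to each other. The mean was 16.2 ± 2.20 (SD, n = 2) against 10.7 ± 0.338 (SD, n = 2), a ratio of 0.662, and the log2 fold change was -0.55 (standard error 0.22, 95% interval -1.07 to -0.03, adjusted p = 0.223 from limma). With the same protein-coding total per library, that fold change was -0.34. IGF1 was below 1 FPKM in each library, IGF2 reached no more than 0.00958, and INS was listed at 0 in all 4.

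The ephrin receptors, which read ephrins on neighbouring cells and set boundaries between them, make up 12 of the 43, and 2 of them were expressed. EPHA2, a receptor of ephrin-A1, was at 17.5 and 21.2 FPKM in WT, against 17.3 and 7.46 in edited libraries. Edited library 1 was just below WT library 1, and library 2 was far below all others. The log2 fold change was -0.71 (limma, standard error 0.37, adjusted p = 0.328), and it was -0.15 without edited library 2.

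EPHB4, the receptor of ephrin-B2, was at 11.4 and 17.1 FPKM in WT, against 15.8 and 12.7 in edited libraries. The means were 14.3 ± 4.03 (SD, n = 2) and 14.3 ± 2.20 (SD, n = 2), and both edited values lay between the WT values. The log2 fold change was 0.02 (95% interval -0.62 to 0.65), with -0.26 without WT library 1 and -0.13 without edited library 1. That fold change was 0.29 without WT library 2 and 0.23 with the same protein-coding total per library. EPHB2 had a single library at 1 or more, WT library 2 at 1.18 FPKM, with 0.666 in WT library 1 and 0.682 and 0.304 in the edited libraries.

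The other 9 ephrin receptors were lower. EPHB3 and EPHA3 had means of 0.193 and 0.128 FPKM, EPHB1, EPHA10, EPHA1 and EPHB6 reached no more than 0.167 in any library, and EPHA5, EPHA7 and EPHA4 no more than 0.0185. Among the ligands, EFNA1 was at 16.7 and 23.9 FPKM in WT, against 8.72 and 13.9 in edited libraries. EFNB2, the ligand of EPHB4, reached no more than 0.135 FPKM, while EFNB1 was at 1.94 and 3.52 against 6.98 and 3.60, a log2 fold change of 0.73 (adjusted p = 0.290, limma), or 0.33 without edited library 1.

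DDR1, a receptor for collagen, was the second most abundant receptor. It stood at 31.1 and 30.0 FPKM in the WT libraries, against 27.6 and 40.4 in the edited libraries. The WT libraries were alike and lay between the edited ones, and the log2 fold change was 0.12 (95% interval -0.47 to 0.72), or -0.14 without edited library 2. That fold change was 0.39 without edited library 1 and 0.34 with the same protein-coding total per library. DDR2, the collagen receptor of connective tissue, was at 1.31 and 0.355 FPKM in WT, against 0.418 and 0.340 in edited libraries, so WT library 1 alone exceeded 1.

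Collagen genes were expressed alongside. COL3A1 was at 33.3 and 31.9 FPKM in WT, against 45.8 and 55.7 in edited libraries, with no overlap and a log2 fold change of 0.62 (adjusted p = 0.177, limma). COL1A1 and COL4A1 overlapped between genotypes.

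TYRO3, of the family that recognises phosphatidylserine on dying cells through PROS1 and GAS6, was at 7.72 and 8.75 FPKM in WT, against 5.05 and 5.98 in edited libraries. The edited libraries lay below the WT libraries. The WT mean was 8.23 ± 0.734 (SD, n = 2), against 5.52 ± 0.657 (SD, n = 2) in edited cells, and the log2 fold change was -0.50 (95% interval -1.03 to 0.03, adjusted p = 0.259 from limma). With the same protein-coding total per library, that fold change was -0.31. MERTK, its relative in macrophages, had values from 0.0246 to 0.155 FPKM.

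PROS1, the anticoagulant protein S and a ligand of TYRO3, was at 16.9 and 15.2 FPKM in WT, against 7.56 and 6.33 in edited libraries. Here too the genotypes did not overlap, and the log2 fold change was -1.10 (limma, standard error 0.22, adjusted p = 0.0676). GAS6 was lower, at 0.626 and 1.44 FPKM against 0.503 and 0.615.

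**Figure D3:**
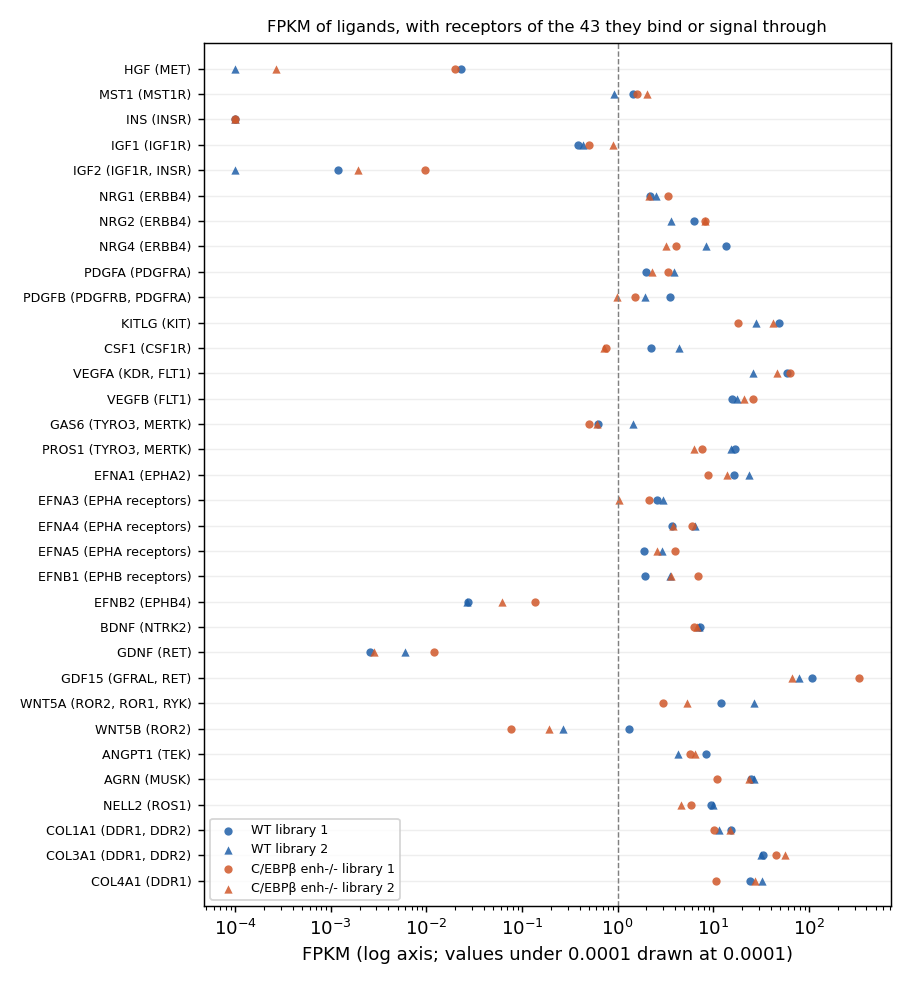
FPKM of ligands in each library on a log axis, with the receptors among the 43 that each binds or signals through in brackets and a dashed line at 1 FPKM. HGF and EFNB2 lie under 1 while MET and EPHB4 are expressed, and KITLG, VEGFA, ANGPT1 and BDNF lie above 1 while KIT, KDR, TEK and NTRK2 are near 0. WNT5A, NRG4 and PROS1 have both edited libraries left of both WT libraries.

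The remaining receptors, apart from STYK1, were near 0 in these cells. The endothelial receptors FLT1, KDR, FLT4, TEK and TIE1 reached no more than 0.0906 FPKM in any library. The neurotrophin receptors NTRK2 and NTRK3 reached no more than 0.00999, and RET, ROS1, MUSK, ALK and LTK no more than 0.0700. STYK1, a kinase anchored in the membrane that lacks a ligand-binding domain, was at 0.505 and 0.347 FPKM in WT, against 0.570 and 0.282 in edited libraries.

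In all, 30 receptors had a mean under 1 FPKM, 27 of them stayed under 1 in every library, and 23 had a mean under 0.1. None of the 43 was listed at 0 in all 4 libraries, but FLT3 and KDR had a value above 0 in edited library 1 only, and RET in WT library 2 only. Values this small were not compared between genotypes. Several ligands of near-silent receptors were abundant: VEGFA, at 58.9 and 26.1 FPKM in WT, against 64.0 and 46.6 in edited libraries, GDF15, at 107 and 79.7 against 337 and 65.9, and AGRN, at 25.1 and 26.5 against 10.8 and 23.6. GFRAL, through which GDF15 acts on RET, was listed at 0 in each library.

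The position of the receptors was looked at next. The other tested genes within 1 Mb of MET, 7 in all, had a median log2 fold change of -0.34, and the 596 others of chromosome 7 had -0.20, both less negative than -1.10 for MET. For PDGFRB the 20 neighbours had -0.09 and the chromosome 0.01, beside -1.02 for the receptor. IGF1R stood at -0.55 where its 5 neighbours had a median of 0.01 and chromosome 15 one of -0.10. INSR, at 0.33, had 32 neighbours with a median of -0.28, on a chromosome at 0.02. Single neighbours ran from -1.48 to 0.61 for MET and from -1.55 to 1.03 for PDGFRB. They ran from -0.28 to 0.09 for IGF1R and from -2.24 to 0.44 for INSR.

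Among the other receptors, ROR1 at -0.44 had 10 neighbours at -0.45, and DDR1 at 0.12 had 59 neighbours at 0.12 in the histocompatibility region of chromosome 6. PTK7 at 0.21 had 35 neighbours at 0.40. Near ERBB4 there were 3 tested genes with a median of -0.48, from -0.77 to -0.46. Chromosome 2 as a whole had -0.44, so lower values were common along that chromosome. ERBB4 itself was not among the tested genes, and without a filter it had -1.21, a value given as a description.

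For RYK the 6 neighbours had a median of -0.15 and for TYRO3 the 31 neighbours had -0.15. EPHA2 had 28 neighbours at -0.14, ROR2 had 10 at 0.12, EPHB4 had 43 at -0.21 and MST1R had 48 at -0.22. Around the 2 low receptors EPHB2 and DDR2, 22 and 9 genes had medians of -0.37 and -0.05. The medians of the chromosomes were -0.19 for RYK and MST1R, -0.10 for TYRO3, 0.01 for ROR2, 0.11 for DDR1 and PTK7, -0.20 for EPHB4, and -0.22 for EPHA2, ROR1, EPHB2 and DDR2.

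**Figure D4:**
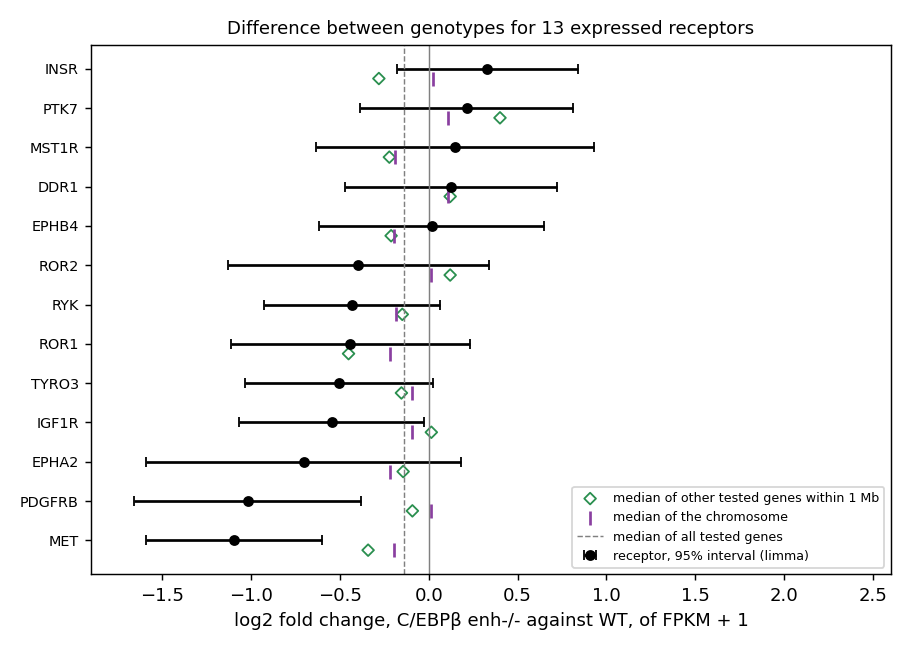
Log2 fold change of the 13 expressed receptors with 95% intervals from limma, from INSR at 0.33 to MET at -1.10. Green diamonds give the median of other tested genes within 1 Mb, purple ticks that of the chromosome, and the dashed line that of all tested genes, -0.14. The intervals of MET, PDGFRB and IGF1R exclude 0, before any adjustment for the number of genes.

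The partners of these receptors, their ligands among them, were examined as 4 lists, and 0 of their 96 tested genes passed the threshold in limma, beside 1.46% of all tested genes. Among 56 ligands, 25 were tested, with a median log2 fold change of -0.10, and 6 were lower and 2 higher at an unadjusted p under 0.05. In 10 of the 25, both edited libraries lay below both WT libraries, and in 5 both lay above. All tested genes had 16.9% lower and 3.86% higher at that p, with 37.5% below and 15.1% above. Without CSF1, the counts of the other 24 ligands were 5 lower and 2 higher, with 9 below and 5 above. GDF15, VEGFA and COL3A1 were the most abundant ligands. With the median of all tested genes subtracted, the medians were 0.04 for ligands, -0.03 for adaptors and -0.11 for negative regulators.

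Co-receptors had a median of -1.01 over the 5 tested of 13, which is the value of NRP2, a gene that reached the filter through the WT libraries alone, at a mean of 1.70 FPKM against 0.335. Of the other 4, both edited libraries lay below both WT libraries for 3, and 2 were lower and 0 higher at an unadjusted p under 0.05, where all tested genes had 37.5% below and 16.9% lower. With the same protein-coding total per library the median was -0.56 over 4 genes, as NRP2 fell under the filter, with a mean of at least 5 it was -0.50, and without a filter -0.02. SORT1, the sorting receptor sortilin, was at 9.67 and 7.23 FPKM in WT, against 3.96 and 2.90 in edited libraries, a log2 fold change of -1.09 (adjusted p = 0.0878, limma). SORL1 had a log2 fold change of -1.02, or -0.64 without edited library 1, and the neuropilin NRP2 one of -1.01. NRP1, the neuropilin that binds VEGFA, was just under the filter, at 1.84 and 1.82 FPKM in WT against 0.217 and 0.0630 in edited libraries. CD44 was the most abundant co-receptor, with values from 21.6 to 50.3 FPKM that overlapped, followed by IGF2R, the receptor that clears insulin-like growth factor 2, with a log2 fold change of -0.50.

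Adaptors and first effectors had 33 of 41 genes tested and a median of -0.17. At an unadjusted p under 0.05, 8 were lower and 0 higher, and both edited libraries lay below both WT libraries in 15 and above in 4, beside 16.9%, 3.86%, 37.5% and 15.1% of all tested genes. Over the 29 with a mean of at least 1 FPKM in each genotype, 7 were lower and 0 higher, with 13 below and 2 above. SHC1, an adaptor that docks on phosphorylated receptors, was at 54.8 and 86.9 FPKM in WT, against 21.3 and 39.8 in edited libraries, with a log2 fold change of -1.22 (limma, standard error 0.36, adjusted p = 0.132), or -0.78 without edited library 1. CRKL, at 18.4 and 16.1 FPKM against 9.53 and 7.95, had -0.91, DOK1 had -1.04 and GRB2 had -0.51. FYN, the most abundant kinase of the list, overlapped between genotypes at 62.7 to 113 FPKM. Above both WT libraries stood PLCG2 at 0.57, or 0.34 without edited library 1, DOK4 at 0.43, or 0.28 without WT library 1, NCK2 at 0.42 and PIK3CA at 0.24, or 0.11 without WT library 2. DOK1 and IRS1 reached the filter through the WT libraries alone, at means of 2.45 FPKM against 0.694 and of 1.84 against 0.798, and PLCG2 and NCK2 did so through the edited libraries alone, at 1.51 against 0.691 and at 1.31 against 0.732.

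Negative regulators and sheddases, the genes that end or trim receptor signals, had 33 of 37 tested and a median of -0.25. At an unadjusted p under 0.05, 8 were lower and 1 higher, and the edited libraries lay below both WT libraries in 14 and above in 4, again beside 16.9%, 3.86%, 37.5% and 15.1%. ADAM17, a protease that sheds receptors and ligands, was at 12.0 and 12.5 FPKM in WT, against 6.59 and 4.15 in edited libraries, a log2 fold change of -1.08 (adjusted p = 0.0903, limma). GRB7 had -1.03, or -0.41 without edited library 2, and the phosphatase PTPRF -0.98. PSENEN, a subunit of gamma-secretase, was at 25.1 and 27.6 FPKM against 54.4 and 36.4, a log2 fold change of 0.74 (adjusted p = 0.176, limma), or 0.46 without edited library 1. SH3KBP1 had 0.42, or 0.18 without WT library 2, and CBLB had 0.38, or 0.17 without edited library 1. The inhibitor of metalloproteases TIMP1 and the sorting protein HGS were the other most abundant genes of the list, at 0.30 and -0.68, and TIMP1 came to 0.03 without edited library 1.

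**Figure D5:**
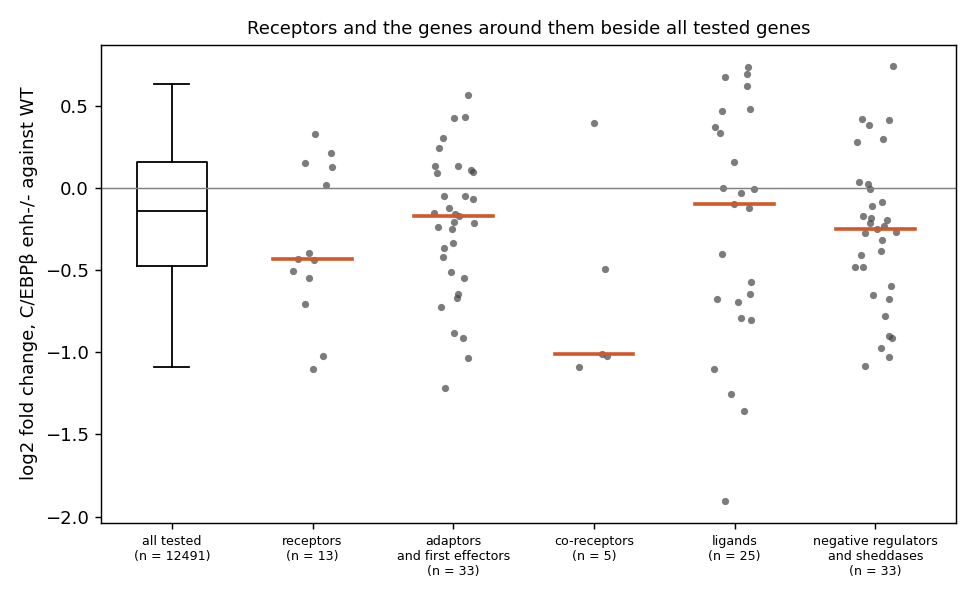
Log2 fold change of each tested gene in the receptor list and in the lists of its partners, with orange bars at the medians, beside a box of all 12491 tested genes with quartiles and whiskers at the 5th and 95th percentiles. Medians run from -0.10 for ligands to -1.01 for the 5 co-receptors, against -0.14 for all tested genes. When 1 library was left out, the medians went to -0.30 for ligands and -0.25 for adaptors without WT library 2, and to -0.50 for negative regulators and -0.64 for co-receptors without edited library 1. With the same protein-coding total per library they were 0.11 for ligands, -0.0027 for adaptors, -0.05 for negative regulators and 0.06 for all tested genes.

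The upstream bases of the receptors were searched in a RefSeq table on GRCh38.p14, which matched 40 of the 43, all except FLT4, STYK1 and EPHA10, with 64 start sites. The 250 bases before each start were read on both strands. The C/EBP motif TTGCNNAA occurred in 9.38% of these stretches, at ALK, EPHA4, MUSK, PDGFRA and ROS1, and in 9.05% of all 35116 stretches in the table. The shorter GCAAT, which can overlap it, occurred in 12.5% of the receptors' stretches and in 21.3% of all, and neither had a match among the 13 expressed receptors. The GC box GGGCGG was in 65.6% of the receptors' stretches and in 42.6% of all.

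Among the other letters searched, CCAAT was in 32.8% of the receptors' stretches and in 32.0% of all, TATAAA in 6.25% and 10.7%, and the AP-1 motif TGANTCA in 6.25% and 6.57%. Of the expressed receptors, 12 of 13 had a GC box, and the exception was ROR1. PDGFRB, DDR1, EPHB4 and ROR1 had a CCAAT match. A match describes the letters of a stretch and is no evidence of binding.

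Markers of other cell types were measured because receptors such as PDGFRB and the endothelial receptors belong to particular cells. Of 10 epithelial markers, 5 reached 1 FPKM in a library, and their sum was 1475 and 1685 FPKM in the WT libraries, against 693 and 826 in the edited ones. KRT18 (log2 fold change -1.52, adjusted p = 0.0243, limma) and KRT8 (-1.68, adjusted p = 0.0325, limma) fell, though each lost the threshold in 8 of 14 other fits, those without any 1 of the libraries among them, with adjusted p up to 0.209 and 0.481. KRT7 had the lowest fold change of the 4 tested, at 636 and 429 FPKM in WT, against 95.4 and 220 in edited libraries. KRT17 overlapped at 190 and 459 FPKM in WT, against 359 and 367 in edited libraries, and CDH1 and EPCAM were near 0 throughout. Of the 4 tested, 2 passed in limma, beside 1.46% of all tested genes. At an unadjusted p under 0.05, 3 were lower and 0 higher, beside 16.9% and 3.86%. Both edited libraries lay below both WT libraries in 3 of the 4, beside 37.5%. Of 10 mesenchymal markers, 5 reached 1 FPKM, with a sum of 292 and 378 FPKM in WT, against 300 and 295 in edited libraries, led by VIM, and with COL1A2, LUM and POSTN near 0. Of the 4 tested, 0 passed in limma, with VIM lower and TAGLN and COL3A1 higher at an unadjusted p under 0.05, beside 16.9% and 3.86% of all tested genes. These values stand beside the lower PDGFRB and MET, and their part in those differences was not tested.

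Endothelial markers reached 1 FPKM for 3 of the 9 genes found, with sums of 5.61 and 3.83 FPKM in WT, against 5.92 and 3.93 in edited libraries, led by EGFL7, while VWF and CDH5 were near 0 like KDR and TEK. Blood cell markers reached 1 FPKM for 1 of 10, CD68, with sums of 3.60 and 4.31 FPKM in WT, against 8.76 and 2.36 in edited libraries, and PTPRC was near 0 like KIT and FLT3. Neural markers reached 1 FPKM for 3 of the 9 found, SNAP25, TUBB3 and SYP, with sums of 19.1 and 14.1 FPKM against 13.3 and 22.1, and with STMN2 and ELAVL4 near 0 like NTRK2 and NTRK3. Only 2, 1 and 2 genes of these 3 lists were tested, of which 0 passed the threshold in limma or had an unadjusted p under 0.05, too few to set against the 1.46%, 16.9% and 3.86% of all tested genes.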

How the data were processed

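The authors deposited 1 FPKM value per gene and library. The submitters' processing notes name hg19, TopHat2 2.0.13, Cufflinks and edgeR. Read counts were not used here. WT libraries 1 and 2 had a total of 545795 and 536884 FPKM, and C/EBPβ enh-/- libraries 1 and 2 one of 614111 and 484073. The 5 highest genes held 22.3%, 18.8%, 35.1% and 27.4% of it. Relative depth was estimated as the most common ratio between WT library 1 and another library. It was taken over genes above a small lower limit and under 0.3 FPKM in both. For C/EBPβ enh-/- libraries 1 and 2 and WT library 2 it was about 0.555, 1.22 and 1.13 times that of WT library 1. The lowest depth was that of C/EBPβ enh-/- library 1. All 4 descriptions name the same flow cell and lane.

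Each library held 57815 entries, of which 57768 remained without the pseudoautosomal copies on chromosome Y. Symbols and GRCh37 positions came from GENCODE release 44 lifted to that build and matched 55535 identifiers. The 12491 genes whose mean reached 1 FPKM entered a two-sided comparison on log2(FPKM + 1) in limma 3.58.1 (R 4.3.3; lmFit, then eBayes fitted with the trend of variance on mean). The Benjamini-Hochberg adjustment ran over all of them. The fit was tested on simulated data. Alternatives were no trend, a pseudocount of 0.1, no filter or one at a mean of 5, other scalings, a replicate block, protein-coding genes alone and leaving out each library. Python 3.11.15 with pandas 2.3.3, numpy 2.4.6 and matplotlib 3.10.9 gave medians, counts and figures.

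Named genes are CEBPB and every receptor, by library where the mean or a library reached 1 FPKM, with their neighbours within 1 Mb. From each of the 4 lists of partners, the rule took genes past the threshold, the 3 most abundant, and the 3 highest and 3 lowest fold changes without overlap. Other ligands, NRP1, PIK3CA, IRS1 and GFRAL, and the 4 printed promoters, were chosen after their values were seen, and so was the filter at a mean of 0.5. The receptors and the lists were chosen with earlier results of these data known. With 2 libraries per genotype, the number of libraries limits the precision.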

Additional observations from a re-analysis of the deposited data

How the results depend on the processing

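Over 179 refits of the 13 expressed receptors, 172 kept their direction and their side of the threshold. MET passed among protein-coding genes alone (log2 fold change -1.10, adjusted p = 0.0331, limma). All 13 started short of the threshold. Refits that changed only the trend, the filter, the block or the set of genes gave the same fold change and could not change a sign. The count of 172 is therefore no measure of how stable the receptors are. The other 6 changed sign when 1 library was left out, in 5 receptors: DDR1 (lowest and highest of these fits -0.14 and 0.39), PTK7 (-0.0070 and 0.43), ROR2 (-0.80 and 0.0033), EPHB4 (-0.26 and 0.29) and MST1R (-0.18 and 0.48). In these 5 the genotypes overlapped, and without overlap leaving out 1 library cannot change a sign. Why their libraries differed was not tested. Of 409 refits of 30 other genes, CSF1 and those whose fold change is given, 0 changed sign, and other genes given by their levels alone were not counted. Many of these genes were picked because their genotypes did not overlap, so leaving out 1 library could not change their sign. That count is therefore no measure of how stable they are. With 1 library left in a genotype, its spread is assumed to equal that of the other.

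The count of tested genes past the threshold, 151 lower and 31 higher in limma, moved with most choices. It was 61 lower with the same total per library, 57 with the same protein-coding total, 68 when centred on the median, and, among protein-coding genes, 457 lower and 60 higher. With a mean of at least 5, 20 were higher. Without a filter 0 were lower and 0 higher. Leaving out a library gave 9 to 22 lower and 3 to 20 higher. With the replicate block, 93 were lower. Same-numbered libraries deviated with a correlation of 0.0094 across genes, so no shared deviation was seen. That cannot show whether they were prepared in pairs, which the labels do not say. The replicate block left the count of receptors past the threshold at 0 and raised that of their partners from 0 to 1, WNT5A.

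Receptors past the threshold numbered 0 in every fit except that of protein-coding genes, with 1 lower, MET, and partners 0 except for the block and for protein-coding genes, with 4 lower (WNT5A, NRG4, PROS1 and SORT1). The median of the receptors was -0.0054 over all 43 without a filter, -0.21 with the same protein-coding total and -0.26 when centred, and ran from -0.42 to -0.24 without 1 library. CEBPB stayed lower and short of the threshold in each fit, at -1.27 to -0.62 without 1 library. Expressed receptors numbered 12 to 17 under the other rules.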
